A study of Mus musculus with 2 samples.

Results

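The nuclear genes that encode respiratory complexes II to V were compared between osteoclasts and the bone marrow macrophages they form from. Members were all genes whose symbol in the platform's probe annotation names a subunit of succinate dehydrogenase (complex II), of the cytochrome bc1 complex (complex III), cytochrome c itself, a subunit of cytochrome c oxidase (complex IV) or a subunit of ATP synthase (complex V). Cox6a2, a form of a complex IV subunit found in muscle, was left out by that rule. This gave 44 genes read by 70 probes, out of 19057 genes and 45281 probes on the Illumina bead array. On a list of known subunits made by hand, 4 further genes had no probe named for them. The complexes were therefore not read in full. The RNA came from cultured tibia and femur marrow of C57BL/6J mice, 8 to 12 weeks old, with 3 mice per sample and 1 array per cell type. Osteoclasts had 4 days with M-CSF, the growth factor of the macrophage lineage, and then 3 days with M-CSF at 25 ng/ml and soluble RANKL, the cytokine that drives osteoclast formation, at 30 ng/ml. Macrophages are listed with 4 days of M-CSF alone at 25 ng/ml and no RANKL. The labels do not say on which day they were collected, so the groups may differ in days of culture too. The labels list no genetic change in either group. There was no replicate array, so each difference is between these samples, no test was run, and the number of arrays limits the precision.

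These complexes sit in the inner mitochondrial membrane. Complexes II, III and IV pass electrons from succinate by way of ubiquinone and cytochrome c to oxygen, complexes III and IV pump protons as they do so, and complex V uses the returning protons to make ATP. A few subunits of complexes III, IV and V are encoded in mitochondrial DNA and the rest, with the whole of complex II, in the nucleus. Osteoclasts are known as cells rich in mitochondria.

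The osteoclast array was the brighter as a whole, with a median probe intensity of 7.84 against 3.90 on the macrophage array, and with no normalization the median log2 difference of all detected genes was 0.60. Values were therefore compared after background correction and quantile normalization, as osteoclast minus macrophage on the log2 scale, where 1 is a 2-fold difference; intensities are given as deposited, so that their plain ratio runs above the normalized fold. Detected probes are those with an intensity above 7.20 on the osteoclast array or above 4.88 on the macrophage array, and each gene is represented by its brightest probe. The labelled cell types were checked against their markers. Of 12 osteoclast markers 11 were detected in osteoclasts and 7 in macrophages, led by cathepsin K (Ctsk, at 50206 and 55.4), whereas Atp6v0d2 was detected on neither array. All 9 macrophage markers that were measured were detected on both arrays. Of these, 7 were lower in osteoclasts by 2-fold or more, where 8.19% of all detected genes were. Their median difference was -2.03. Markers of other cells differed too. The summed intensity of 10 granulocyte markers was 889 in osteoclasts and 48326 in macrophages, that of 15 skeletal muscle markers was 18347 and 223, that of 6 epidermal markers was 20617 and 105, and that of 6 fibroblast markers was 1920 and 37.1. For 4 erythroid markers the sums were 240 and 47.7. Of the fibroblast sum in osteoclasts, Dcn alone made up 1600, and 5 of the 6 differed by more than 0, while Pdgfra differed by -0.16. The part of these other cells in the results below was not tested. In RNA of whole cultures, a different number of cells of a type and a different amount of RNA per cell cannot be told apart.

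Messenger RNAs of complexes II to V were higher in osteoclasts as a group. Of the 44 members 40 were detected, 38 of them on both arrays. The 4 others, not well above background on either array, were Sdha, Cox4i2, Cox7b2 and Cox8c. Among the 40, 15 were higher in osteoclasts by 2-fold or more, where 11.5% of all 13014 detected genes were. None (0) was lower by as much, where 8.19% of all detected genes were, and 25 lay within 2-fold. A difference above 0 was seen for 37 of the 40, against 47.5% of all detected genes. The median difference was 0.82 (1.76-fold), with quartiles of 0.43 and 1.11, while the median of all detected genes was -0.05 with quartiles of -0.49 and 0.47. Most members are bright, and 29 of them were among the 3254 detected genes with the highest mean signal (the top quartile). Of those 29, 11 were higher by 2-fold or more and 28 had a difference above 0, against 11.7% and 48.2% of all 3254, whose median was -0.03.

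**Figure D1:**
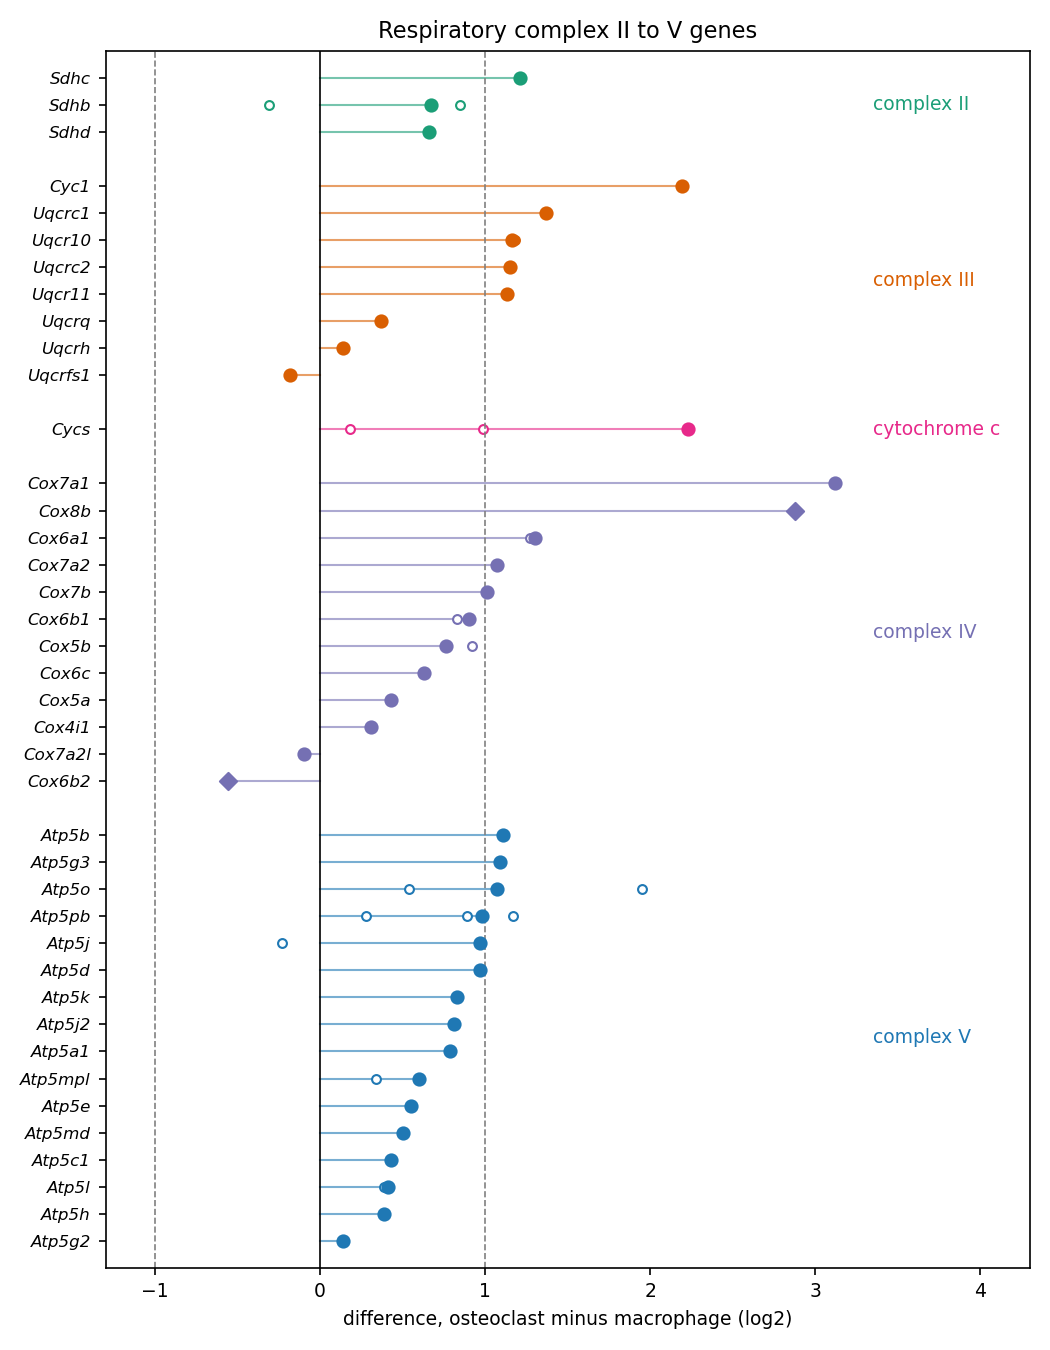
Difference between osteoclasts and macrophages (x axis, log2) for each of the 40 detected members (y axis), grouped by complex and sorted within each; filled points are the probes that represent the genes, diamonds are genes detected on 1 array only, open points are further probes detected on both arrays, and dashed lines mark 2-fold. Cyc1, Cycs, Cox7a1 and Cox8b lie beyond 2 log2 units, every complex V gene lies to the right of 0 at its filled point, and no point reaches the dashed line on the left.

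The members differed among themselves, and 4 stood apart at their representing probes. Cyc1, a subunit of complex III, was 4.55-fold higher, and Cycs, the electron carrier between complexes III and IV, was 4.68-fold higher. The others were Cox7a1 (8.70-fold) and Cox8b (at least 5.35-fold), subunit forms known from muscle. The next highest was Uqcrc1, at 2.58-fold. The 2-fold line runs through a dense part of the list. Just above it lay Cox7b (2.01-fold), and just below it Atp5pb (1.98-fold), Atp5j (1.97-fold) and Atp5d (1.95-fold). The count of 15 is accordingly sensitive to small shifts, and it was 10 in the authors' processed values, in which 11.7% of the same detected genes reached 2-fold. It was 27 under median scaling, where 19.3% of all detected genes were higher by 2-fold or more, and 34 without normalization, where 29.7% were; of all genes at least 2-fold apart, 58.5% were higher in osteoclasts as reported, 81.0% under median scaling and 91.2% without normalization.

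**Figure D2:**
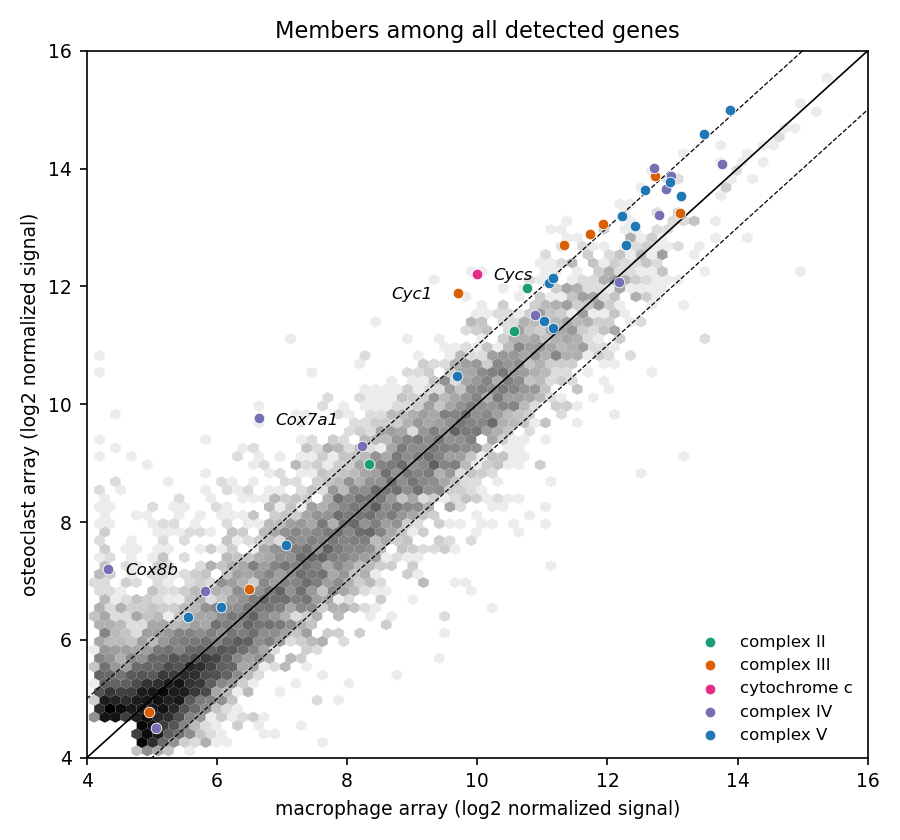
Normalized log2 signal of each gene on the osteoclast array (y axis) and the macrophage array (x axis); grey hexagons are all 13014 detected genes (darker for more genes), coloured points are the detected members by complex, the solid line marks equal signal and dashed lines mark 2-fold. Most members lie between the solid line and the upper dashed line, and Cyc1, Cycs, Cox7a1 and Cox8b lie well above the upper one.

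Promoter sequence was examined because nuclear respiratory genes are known to share binding motifs of NRF1, of ETS-family factors such as GABP, of ERR receptors and of YY1. RefSeq windows of 300 bases on GRCm38.p6, from 250 before to 50 after the start site, were found for 34 of the 44 genes (37 windows). Both strands were searched for CGCANGCGC (NRF1), CCGGAAG (ETS), TCAAGGTCA (ERR) and AAGATGGCG (YY1); a palindromic NRF1 site matches on both strands, shifted by a base, and no other matches overlap in the windows shown. The NRF1 letters were held by 16 of the 34 genes (47.1%), against 7.12% of all 27025 genes with a window. The ETS letters were held by 12 (35.3%, against 9.93%), the ERR letters by 2 (5.88%, against 0.466%) and the YY1 letters by 2 (5.88%, against 1.64%). NRF1 letters were present in 7 of 12 genes higher by 2-fold or more and in 8 of 20 genes within 2-fold, and ETS letters in 2 of those 12 and 10 of those 20. The NRF1 and YY1 letters were shortened by 1 base after a first search, which added the match of Cycs; in the first search NRF1 letters were held by 10 of the 34 genes (29.4%, against 5.19% of all genes; 4 of those 12 and 5 of those 20), and YY1 letters by 1 (2.94%, against 0.995%). Of the genes with the largest differences, Cycs held a match to the shortened NRF1 letters, Cox7a1 and Cox8b held none of the 4 motifs, and no window was at hand for Cyc1.

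The windows shown were picked after the values were seen: Cycs, Cox7a1 and Cox8b for their differences, Uqcrc1 and Cox6a1 as the next highest, and Uqcrh as a gene that hardly differed (1.10-fold) yet holds an ETS match. Capitals mark the matches, and each runs 5′ to 3′ on the gene's strand.
Cycs promoter (chr6:50566520-50566819, - strand, GRCm38.p6): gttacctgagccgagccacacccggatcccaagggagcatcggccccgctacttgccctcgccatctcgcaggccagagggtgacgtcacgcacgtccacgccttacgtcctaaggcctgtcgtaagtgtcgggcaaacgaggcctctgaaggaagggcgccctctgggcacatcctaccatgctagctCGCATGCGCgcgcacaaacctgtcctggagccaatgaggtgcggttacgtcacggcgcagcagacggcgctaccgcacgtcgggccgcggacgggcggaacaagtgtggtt
Cox6a1 promoter (chr5:115348909-115349208, - strand, GRCm38.p6): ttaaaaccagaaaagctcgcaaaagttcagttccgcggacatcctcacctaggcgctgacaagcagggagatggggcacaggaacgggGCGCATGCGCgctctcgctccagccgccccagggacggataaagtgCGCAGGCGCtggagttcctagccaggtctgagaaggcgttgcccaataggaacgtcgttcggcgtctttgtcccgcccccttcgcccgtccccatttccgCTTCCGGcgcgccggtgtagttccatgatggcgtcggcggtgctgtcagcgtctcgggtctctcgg
Uqcrc1 promoter (chr9:108936398-108936697, + strand, GRCm38.p6): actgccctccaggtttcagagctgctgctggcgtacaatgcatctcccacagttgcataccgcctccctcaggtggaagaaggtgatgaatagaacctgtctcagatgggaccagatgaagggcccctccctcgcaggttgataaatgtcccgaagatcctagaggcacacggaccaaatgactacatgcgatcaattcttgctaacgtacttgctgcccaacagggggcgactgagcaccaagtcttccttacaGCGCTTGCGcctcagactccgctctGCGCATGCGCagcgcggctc
Uqcrh promoter (chr4:116075021-116075320, - strand, GRCm38.p6): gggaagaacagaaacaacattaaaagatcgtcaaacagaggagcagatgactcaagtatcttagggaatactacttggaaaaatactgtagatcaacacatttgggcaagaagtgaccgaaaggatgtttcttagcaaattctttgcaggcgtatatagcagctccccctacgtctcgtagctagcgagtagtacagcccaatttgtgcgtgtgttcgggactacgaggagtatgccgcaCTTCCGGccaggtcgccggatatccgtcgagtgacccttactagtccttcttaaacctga
Cox7a1 promoter (chr7:30183921-30184220, + strand, GRCm38.p6): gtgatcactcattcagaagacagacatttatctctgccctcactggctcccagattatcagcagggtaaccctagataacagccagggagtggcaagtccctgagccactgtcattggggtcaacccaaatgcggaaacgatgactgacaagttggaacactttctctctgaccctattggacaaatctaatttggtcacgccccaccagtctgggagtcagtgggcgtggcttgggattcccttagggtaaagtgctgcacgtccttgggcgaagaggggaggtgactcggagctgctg
Cox8b promoter (chr7:140900397-140900696, - strand, GRCm38.p6): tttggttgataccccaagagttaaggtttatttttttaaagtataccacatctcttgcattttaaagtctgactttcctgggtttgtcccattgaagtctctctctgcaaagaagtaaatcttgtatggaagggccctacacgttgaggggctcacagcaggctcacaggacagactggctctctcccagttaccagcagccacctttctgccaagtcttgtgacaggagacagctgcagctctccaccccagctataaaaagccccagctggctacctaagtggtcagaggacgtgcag
Counted from the start site, the NRF1 match of Cycs begins at -61, and those of Cox6a1 at -162 and -161, which are a palindrome, and at -116, with the ETS match at -16. Those of Uqcrc1 begin at 5 and, as a palindrome, at 30 and 31, and the ETS match of Uqcrh begins at -10. A match shows letters only, and no binding was measured.

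Complex II, which is also the succinate dehydrogenase of the citric acid cycle, was higher in osteoclasts at the subunits that could be read. The median of its 3 detected genes was 0.67 (1.59-fold). Of these 3, 1 was higher by 2-fold or more, where 11.5% of all detected genes were. Sdhc, a membrane anchor, had an intensity of 5090 in osteoclasts and 1317 in macrophages and was 2.31-fold higher. Sdhb, the iron-sulphur subunit, had 3080 and 1145 (1.59-fold). Sdhd, the other membrane anchor, had 665 and 218 (1.58-fold). The 3 probes of Sdhb ranged from -0.31 to 0.85, a wider span than the distance between Sdhc and Sdhd, and the lowest of them was dim, with 37.9 and 27.7. The flavoprotein gene Sdha, which holds the catalytic site, was read by 1 probe at -8.67 and -8.74, so its level could not be judged on either array.

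Complex III had the highest median of the complexes, 1.14 (2.20-fold), with some genes clearly higher in osteoclasts and others within 2-fold. Of 8 detected genes 5 were higher in osteoclasts by 2-fold or more, where 11.5% of all detected genes were, and 3 were within 2-fold. Cyc1, which encodes the haem protein cytochrome c1, had 4771 in osteoclasts and 613 in macrophages (4.55-fold, a difference of 2.19). The core proteins were both higher. Uqcrc1 had 8254 and 1973 (2.58-fold), and Uqcrc2 had 9589 and 2667 (2.22-fold). Among small subunits, Uqcr10 had 18176 and 5438 (2.23-fold), and its probes were alike at 1.16 and 1.18. Uqcr11 had 10729 and 3085 (2.19-fold).

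The remaining complex III genes that were read lay within 2-fold, and of them only Uqcrh had a bright probe. Uqcrh, the acidic hinge protein beside cytochrome c1, had 12368 in osteoclasts and 7019 in macrophages, a bright probe on both arrays with a normalized difference of only 0.14. Uqcrq, a small subunit, had 138 and 47.6 (1.30-fold), a dim level at which the offset understates differences. Uqcrfs1, the Rieske iron-sulphur protein, was just above the detection limit with 9.61 and 7.61 and differed by -0.18, or by 0.19 without normalization, so that its direction depends on the scaling. Within this complex the differences thus ranged from -0.18 to 2.19.

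Cytochrome c (Cycs), the soluble protein that shuttles electrons from complex III to complex IV and that triggers the apoptosome once released, was among the highest members at the probe that represents it. That probe had 5978 in osteoclasts and 752 in macrophages, 4.68-fold higher (2.23). The gene's other probes were dim and differed less. The first had 103 and 18.8, with a difference of 0.99, and the other had 74.7 and 30.8, with a difference of 0.18. All 3 were detected on both arrays and lay above 0, but the size of the difference rests on the bright probe, and the mean over the probes gave 1.13.

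Complex IV, where oxygen is reduced to water, had a median difference of 0.83 (1.78-fold) over 12 detected genes. Of these, 5 were higher by 2-fold or more, where 11.5% of all detected genes were, and 7 lay within 2-fold. The 8 measured subunits and subunit forms that most tissues use all had differences above 0, from 0.31 to 1.30, with a median of 0.83. The highest was Cox6a1, the widespread form of subunit VIa, with 19697 in osteoclasts and 5416 in macrophages (2.46-fold); its other probe differed by 1.27. Cox7a2, the widespread form of subunit VIIa, had 819 and 201 (2.09-fold). Cox7b had 133 and 25.4 (2.01-fold), a dim probe whose difference was 0.71 with an offset of 50 in place of 16.

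The other common subunits of complex IV that were read lay within 2-fold. Cox6b1 differed by 0.90, with 0.83 at its other probe, and Cox5b by 0.76, with 0.92 at its other detected probe. Cox6c had 3749 in osteoclasts and 1418 in macrophages (1.54-fold), and Cox5a, on the matrix face, had 12124 and 5628 (1.35-fold). Cox4i1, the usual form of the largest nuclear-encoded subunit, had 20395 and 11253 (1.24-fold), the smallest difference among the common subunits read. Cox7a2l, a relative of subunit VIIa that joins complexes III and IV into supercomplexes, had 5462 and 3639; it differed by -0.10, or by 0.58 without normalization.

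Subunit forms of complex IV that are characteristic of other tissues included the largest difference of any member. Cox7a1, the form of subunit VIIa in heart and skeletal muscle and in brown fat, had 1121 in osteoclasts and 54.2 in macrophages (8.70-fold, a difference of 3.12). Cox8b, the muscle form of subunit VIII, had 179 in osteoclasts and was not well above background in macrophages (-2.59), which makes it at least 5.35-fold higher. Both are read by 1 probe. Cox6a2, the muscle form of subunit VIa that is outside the member list, ran the same way with 451 and 71.3 (2.80-fold).

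Markers of skeletal muscle, like the epidermal markers above, were also higher in osteoclasts. Of 15 measured, 15 were detected in osteoclasts and 7 in macrophages, and the median difference was 3.76; Acta1, skeletal muscle actin, had 4683 in osteoclasts and -9.73 in macrophages. The 6 heart markers were detected on neither array. Of 6 brown fat markers 3 were detected in osteoclasts and 1 in macrophages, with a summed intensity of 94.1 and 22.1; Cidea, a lipid droplet protein, was at least 1.81-fold higher, and Ucp1, the uncoupling protein that defines brown fat, was detected on neither array, at 7.10 and 3.01. Of 6 general fat cell markers that were measured 5 were detected in osteoclasts and 2 in macrophages, summing to 365 and 33.0. The median difference of those 5 was 0.55, and 2 were higher by 2-fold or more, where 11.5% of all detected genes were. Adipoq, the hormone adiponectin, was the highest of them, at least 5.29-fold, and Fabp4 was detected on neither array. The part of muscle or fat in Cox7a1 and Cox8b was not tested. Without these 2 genes, a choice made after seeing the data, the median of complex IV was 0.69, and the median of all members was 0.80, with 13 higher by 2-fold or more. The lung form Cox4i2 and the testis forms Cox7b2 and Cox8c were not detected. Cox6b2, another testis form, was at 2.16 in osteoclasts and 9.25 in macrophages, detected in macrophages only, and at least 1.29-fold lower in osteoclasts.

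Complex V was higher at every gene read. All 16 of its genes that had a probe were detected on both arrays. All 16 had a difference above 0, from 0.14 to 1.11, with a median of 0.80 (1.74-fold). Of the 16, 3 were higher by 2-fold or more, where 11.5% of all detected genes were. Its genes, with quartiles of 0.48 and 0.98, lay closer together than those of complex III, with 0.32 and 1.21. The quartiles of complex IV were 0.40 and 1.12 with its muscle and testis forms counted. Those of its 8 common subunits alone were 0.58 and 1.02, so these lay about as close together as complex V. No gene of complex V stood as far out as Cyc1 or Cox7a1.

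In the F1 head, which makes the ATP, the median over 5 genes was 0.79. Atp5b, the catalytic beta subunit, had 38502 in osteoclasts and 12522 in macrophages (2.16-fold). Atp5d, the delta subunit of the central stalk, had 5413 and 1673 (1.95-fold), and Atp5a1, the alpha subunit that alternates with beta, had 1863 and 606 (1.73-fold). Atp5e, the small epsilon subunit, was 1.46-fold higher and Atp5c1, the rotating gamma subunit, 1.34-fold.

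The c ring is the rotor turned by protons, and its genes encode precursors of the same mature protein. Atp5g3 had 29577 in osteoclasts and 9254 in macrophages (2.13-fold). Atp5g2 had 3219 and 1758 (1.10-fold), the smallest difference in complex V. These genes for a single mature product therefore differed unequally, by 1.09 and 0.14.

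The peripheral stalk, which keeps the head from turning, had the highest median within complex V, 0.98 over 4 genes. Atp5o, the OSCP subunit at the top of the stalk, had 15843 in osteoclasts and 4866 in macrophages (2.09-fold). Its further probes differed by 1.95 (1024 and 131) and by 0.54 (33.0 and 7.58), so that all 3 lay above 0 with a wide spread. Atp5pb, subunit b, had 5711 and 1762 (1.98-fold), and its 4 probes ranged from 0.28 to 1.17. Atp5j, coupling factor 6, had 11870 and 3754 (1.97-fold), while another detected probe of it, at 653 and 420, differed by -0.23, so the probes of Atp5j disagree in direction. Atp5h, subunit d, had 3486 and 1569 (1.31-fold).

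The 5 small membrane subunits had a median of 0.60. None (0) was higher by 2-fold or more, where 11.5% of all detected genes were, and with 5 genes this count cannot be told apart from that share. Atp5k (subunit e) was 1.77-fold higher and Atp5j2 (subunit f) 1.75-fold. Atp5l (subunit g) was 1.33-fold higher, and its bright probes were alike at 0.41 and 0.39. Atp5mpl was 1.52-fold and Atp5md 1.42-fold higher. Subunits e and g and Atp5md are known to hold ATP synthase dimers together. The probes of Atp5k and Atp5md were dim, with 90.4 and 106 in osteoclasts and 19.4 and 32.1 in macrophages, and the offset understates differences at such levels.

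Probe agreement sets how firmly single genes can be read. Of the 44 genes 18 had more than 1 probe, and 11 had more than 1 that was detected on both arrays. In 4 of these 11, Sdhb, Cycs, Atp5j and Atp5o, the detected probes differed by over 1 log2 unit. This spread between probes is larger than the distance between the medians of any of the complexes, from 0.67 for complex II to 1.14 for complex III, and with 1 array a side the order of the complexes could not be tested.

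The rest of the pathway was described from gene lists. Complex I, which feeds electrons from NADH into the same chain, stood beside complexes II to V in the plot of cumulative shares. Its 35 detected nuclear genes had a median of 0.82 (1.77-fold), with 12 higher by 2-fold or more (11.5% of all detected genes were), 0 lower by as much (8.19% were) and 23 within 2-fold. These 35 include Ndufs5-ps, which RefSeq lists as a transcribed pseudogene (2.06-fold higher). Without it 11 of 34 were higher and the median was 0.80. The list was made by gene symbol and so also holds Ndufa4 (2.38-fold higher). Whether Ndufa4 belongs to complex I or to complex IV was not examined. The largest were Ndufb6 (3.31-fold), Ndufc1 (2.96-fold) and Ndufa12 (2.89-fold), all subunits without a redox centre.

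Subunits encoded in mitochondrial DNA differed less at the probes named for them. Of 7 detected, 6 had a difference above 0, and the median was 0.45 (1.37-fold). None (0) was higher by 2-fold or more, where 11.5% of all detected genes were, and none (0) lower, where 8.19% were. With 7 genes these counts cannot be told apart from those shares. CYTB, the cytochrome b of complex III, had 31864 in osteoclasts and 16326 in macrophages (1.37-fold). COX2, which carries a copper centre of complex IV, had 3465 and 1503 (1.36-fold). ATP6, the proton channel subunit of complex V, had 7876 and 4520 (1.11-fold). The largest were ND4L (0.87), ND4 (0.64) and ND1 (0.51), all of complex I, and ND5 differed by -0.39, or by 0.41 without normalization. The difference between nuclear and mitochondrial genes was not tested.

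**Figure D3:**
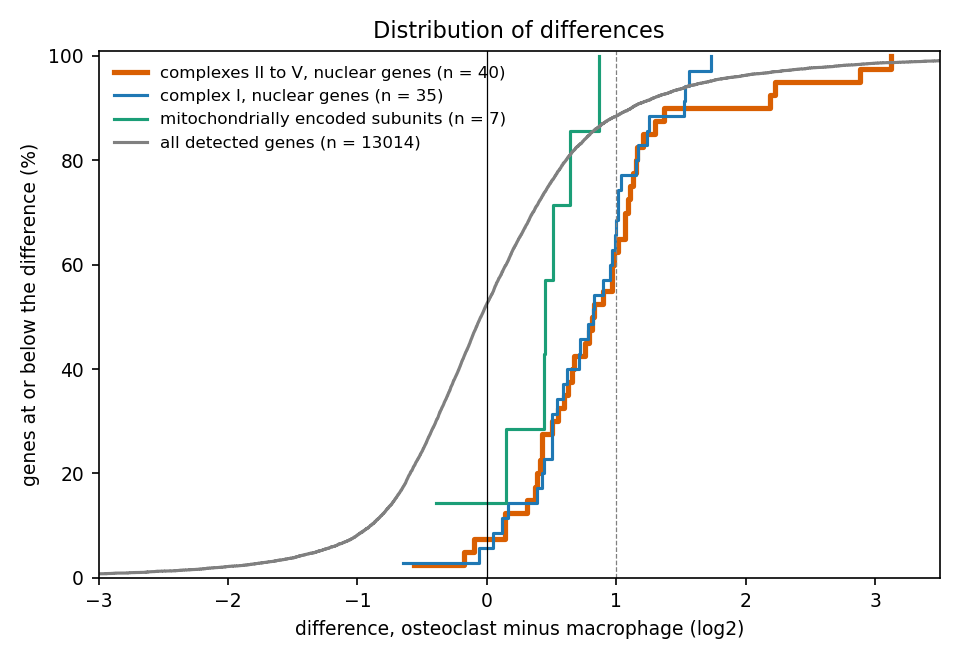
Cumulative share of genes (y axis, percent) at or below each difference between osteoclasts and macrophages (x axis, log2) for the 40 detected members, 35 complex I genes, 7 mitochondrially encoded subunits and 13014 detected genes; the dashed line marks 2-fold, and differences beyond -3 and 3.5 are outside the axis. The curves of complexes II to V and of complex I run close together to the right of all genes, with medians of 0.82 each, and the mitochondrially encoded subunits lie between them and all genes at a median of 0.45.

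Assembly factors, listed together with some other proteins that act on these complexes or on their synthesis, had a median of 0.55 (1.46-fold). Of 32 detected 8 were higher by 2-fold or more, against 11.5% of all detected genes, 0 were lower by as much, against 8.19%, and 24 did neither. The highest were Cox15, of haem a synthesis (2.55-fold), Cox17, a copper chaperone of complex IV (2.53-fold), and Cox18, which inserts COX2 into the membrane (2.45-fold). Surf1, another complex IV assembly factor, had 335 in osteoclasts and 349 in macrophages, a difference of -0.92, or of -0.05 without normalization. Among 5 detected carriers and channels that move ATP, ADP and phosphate, 1 was higher by 2-fold or more, against 11.5% of all detected genes, and the median was 0.69. It was the outer membrane channel gene Vdac1, with 15034 and 3786 (2.54-fold), followed by the ADP/ATP carrier Slc25a5 (1.64-fold) and by Vdac2 (1.62-fold).

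Of 11 detected regulators of respiratory genes, 1 was higher by 2-fold or more, 1 was lower by as much and the other 9 were not; the median was 0.44. These counts are near the shares of all detected genes, 11.5% higher and 8.19% lower. Ppargc1b, the PGC-1 beta coactivator, had 710 in osteoclasts and 37.8 in macrophages (7.24-fold higher). The gene of NRF1, whose motif was searched above, had 347 and 399 (2.07-fold lower; -0.18 without normalization). Pprc1, a relative of PGC-1, was 1.86-fold higher. Ppargc1a, the other PGC-1 coactivator, was not detected on either array.

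The order of the complexes was followed across the ways of processing. Complex III had the highest median of the complexes as reported and under each of 11 other ways of processing, between 1.02 and 1.76, whereas the order of complexes II, IV and V changed. Under median scaling and without normalization all medians shifted up, and so did that of all detected genes. The distance between the members' median and that of all genes was 0.86 as reported and ranged from 0.66 to 0.92 over the others.

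**Figure D4:**
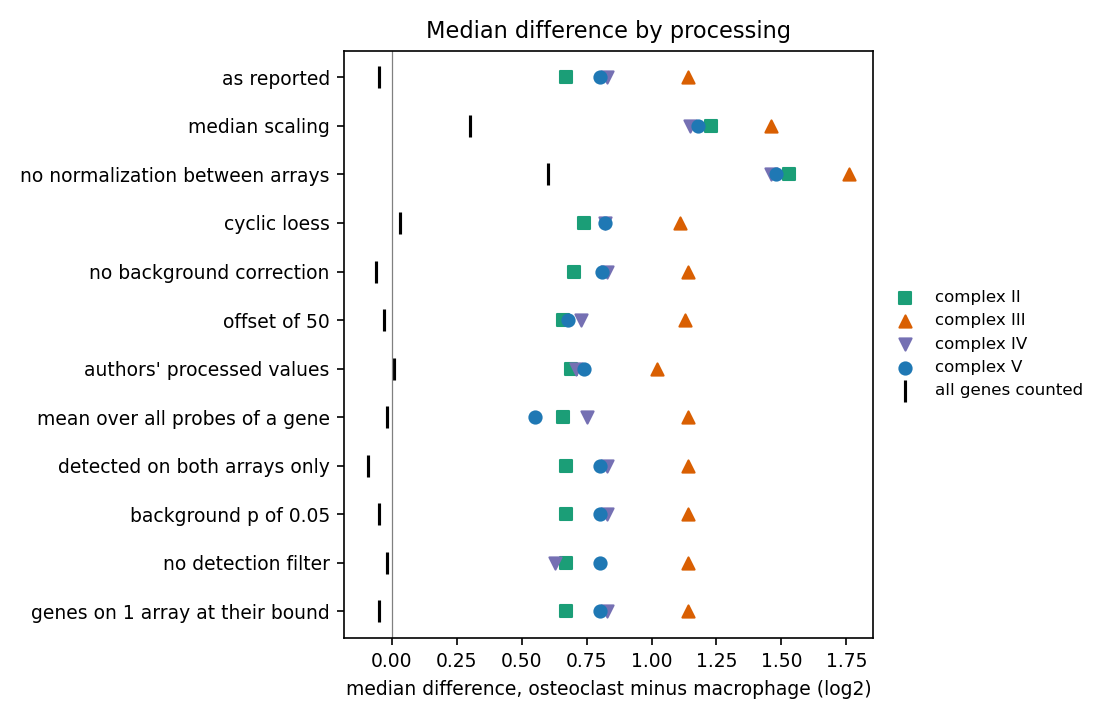
Median difference between osteoclasts and macrophages (x axis, log2) of the genes of each complex (coloured symbols) and of all genes counted (black ticks) as reported and under each of 11 alternative ways of processing (y axis). The symbols of complexes II to V stay to the right of the tick in every line, and the triangle of complex III is farthest to the right in each.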

How the data were processed

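Messenger RNA of 1 macrophage and 1 osteoclast sample was read on Illumina bead arrays. The authors' deposited intensities are linear and not normalized between arrays, per the file headers; 36.9% (osteoclast) and 38.4% (macrophage) of the values were below 0, so a background had been subtracted, and the sources used here do not say how. The authors' deposited log2 values were an alternative. Over 5844 probes with both intensities above 200, their differences followed the log2 intensity ratios (slope 0.97, r = 0.999 across probes, which are not independent replicates); medians were 5.05 (osteoclast) and 5.00 (macrophage), and the normalization and centring behind them are unknown.

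Each array's background was taken as the peak of its intensity distribution with the spread on the lower side of that peak (-5.35, SD 5.40, for osteoclasts; -3.62, SD 3.65, for macrophages), and limma's normexp correction, an offset of 16 and quantile normalization followed (limma 3.58.1, R 4.3.3, Python 3.11.15, pandas 2.3.3). Detected means above a one-sided background p of 0.01, and the true false rate is unknown without control probes. A gene is its probe with the highest mean signal; 34885 probes had 1 gene symbol, 18 several and 10378 none. All 44 members matched the RefSeq gene table of GRCm38.p6 by Entrez identifier, with the same symbol. A gene detected on 1 array has a bound, its bright value over the dim one or, if higher, over the lowest signal of any detected probe there, written "at least". The correction, normalization and 2-fold rule were tested on simulated arrays, with each probe as its own gene and equal numbers of bright probes raised and lowered. The choice of probe, changes at dim probes and unequal numbers raised and lowered were not tested in this way.

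Members and lists were chosen with earlier results of these data known; the symbols of mitochondrially encoded genes, and the pair of alternatives marked as added, were set after the files were read, and the NRF1 and YY1 letters were shortened by a base after a first search, which added the match of Cycs. Every member may be named. By rule, values are given for the 3 largest and 2 smallest differences of each complex and for members 2-fold apart. They are also given for members with discordant probes, for forms of other tissues and for up to 3 genes per list. Further members have values as well, to describe each complex. Beyond these, CYTB, COX2, ATP6, ND5, Surf1, Ppargc1a and the genes next to the 2-fold line were chosen after their values were seen. So were Ndufs5-ps, Ndufa4 and the markers of other cells that are named. Alternatives were the scaling, the background, the offset, the authors' values, the probe rule and the detection rule. Chip and cell type cannot be told apart, since the labels place the arrays on different chips.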

Additional observations from a re-analysis of the deposited data

How the results depend on the processing

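None of the medians of complexes II to V or of the members at least 2-fold apart changed sign under the alternatives run for each, which were 11 in all and 2 more chosen after seeing the data; Cox8b had no value over genes detected on both arrays, and single members and complexes II, III and V had none without Cox7a1 and Cox8b. The 15 members higher by 2-fold or more became 27 under median scaling (2509 of all detected genes higher and 589 lower, 81.0% of calls higher against 58.5% as reported) and 34 without normalization (3859 and 372, 91.2%); in the other alternatives they numbered between 10 and 16. Without background correction 1 member, Cox6b2, was lower by 2-fold or more (-1.90), and 2804 and 2541 of all genes were higher and lower, against 1500 and 1066; with an offset of 50 the counts were 1036 and 739. Medians of all members and of complexes II, III, IV and V were 1.22, 1.23, 1.46, 1.15 and 1.18 under median scaling, and 1.53, 1.53, 1.76, 1.46 and 1.48 without normalization, where the median of all detected genes was 0.30 and 0.60. Less that 0.60, an alternative chosen after seeing the data, they were 0.92 for all members and 0.93 for complex II. The authors' values gave 1.02 for complex III and 0.71 for complex IV. Averaging probes gave 0.64 for all members and 0.55 for complex V, and an offset of 50 gave 0.68 for complex V. Complex IV had 0.63 without a detection filter and 0.69 without Cox7a1 and Cox8b, also chosen after seeing the data. The cause of these shifts was not tested. Cycs ranged from 1.13 (probes averaged) to 2.96 (no normalization), Cyc1 from 2.14 to 2.92 and Cox7a1 from 2.74 to 3.95; Cox8b, near background in macrophages, ranged from 1.76 with an offset of 50 to 6.98 without background correction. No replicate could be left out with 1 array per cell type. No paired analysis was possible because the result comes from no test and each group has 1 sample. Dim probes, near the background, limit what can be said of Sdha, Uqcrfs1 and the undetected forms of complex IV subunits.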
